A study of Mus musculus with 6 samples.

Results

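The genes described here are 8 genes that mark fibroblasts of the meninges and of the perivascular space, other than the collagens: Lum, Dcn, Ogn, Fmod, Aldh1a2, Igf2, Igfbp2 and Slc6a13. They were taken by name, and every probe set whose platform annotation gives one of these symbols alone was used, which gave 16 probe sets of 45037 for 8 genes of 18193. The RNA came from whole brains of C57/Bl6 mice aged 2 months, hybridised to 6 one-colour arrays, 2 per group. Knockout brains carried the Nestin cre transgene and the Pofut1 flox/flox alleles, NestinCre control brains carried Nestin cre with wild-type Pofut1, and Flox control brains carried Pofut1 flox/flox with no transgene named. Nestin-Cre acts in neural progenitors and their progeny, and Pofut1 encodes the O-fucosyltransferase that modifies EGF-like repeats, on which Notch receptors depend.

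The meninges are the membranes around the brain, and their fibroblasts, together with those that follow vessels into the tissue, lay down a collagen-rich matrix. Lumican, decorin, osteoglycin and fibromodulin (Lum, Dcn, Ogn, Fmod) are small leucine-rich proteoglycans that bind collagen and shape its fibrils. The same cells supply retinoic acid and insulin-like growth factors to the brain and carry transporters that form part of the barrier between blood, cerebrospinal fluid and brain. These cells are not held to descend from neural progenitors, and whether Cre acted in them was not measured here. The labels do not say how the brains were dissected or how much of the meninges stayed on them. In whole-tissue RNA, fewer cells of a type and less RNA per cell cannot be told apart.

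Array medians lay between 7.32 and 7.36 on the log2 scale, and the arrays of a group had a Pearson r of 0.993 to 0.995 with each other. Arrays of different groups had an r of 0.985 to 0.995, so these ranges overlap. Neuron, astrocyte and oligodendrocyte markers, 23 genes in all, each lay at or above the 78.4th percentile of probe set brightness. Of the 8 fibroblast genes, 7 lay above the median, which does not show which cells the transcripts came from. The probe set of Pofut1 that was brightest read 9.25 and 9.44 in knockout, 9.84 and 9.77 in NestinCre control and 9.95 and 9.81 in Flox control, a log2 difference of -0.50 (SE 0.08) that did not pass over all probe sets. Xist and the Y-linked Eif2s3y marked knockout replicate 1 and NestinCre control replicate 2 as male and the other 4 arrays as female. Flox control arrays stood apart in pituitary transcripts, with Gh at 7.87 and 9.40, against 6.91 and 6.53 in knockout and 5.92 and 5.84 in NestinCre control.

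The 8 genes did not share 1 pattern. Decorin was higher and lumican lower in knockout than in every control array, Aldh1a2 was alike in knockout and NestinCre control and highest in Flox control, and the main probe sets of Ogn, Fmod, Igf2, Igfbp2 and Slc6a13 were not apart from both controls in 1 direction. Of the 16 probe sets, 0 passed limma's adjusted threshold of 0.05 in knockout against both controls, where 0.0155% of all probe sets did. At an unadjusted limma p under 0.05 there were 5 of 16, 3 higher and 2 lower, and 11.1% of all probe sets passed that looser rule, 6.04% higher and 5.08% lower. In 4 of 16 the knockout arrays did not overlap the 4 controls, 3 higher and 1 lower, beside 18.0% of all probe sets, 8.77% higher and 9.19% lower. The 5 probe sets belong to 4 genes: Dcn with 2, Ogn, Lum and Aldh1a2. By main probe set, the brightest one of each gene, the median log2 difference of the 8 genes was -0.0031, with 4 above 0 and 4 below, beside a median of -0.02 over 18193 genes.

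**Figure D1:**
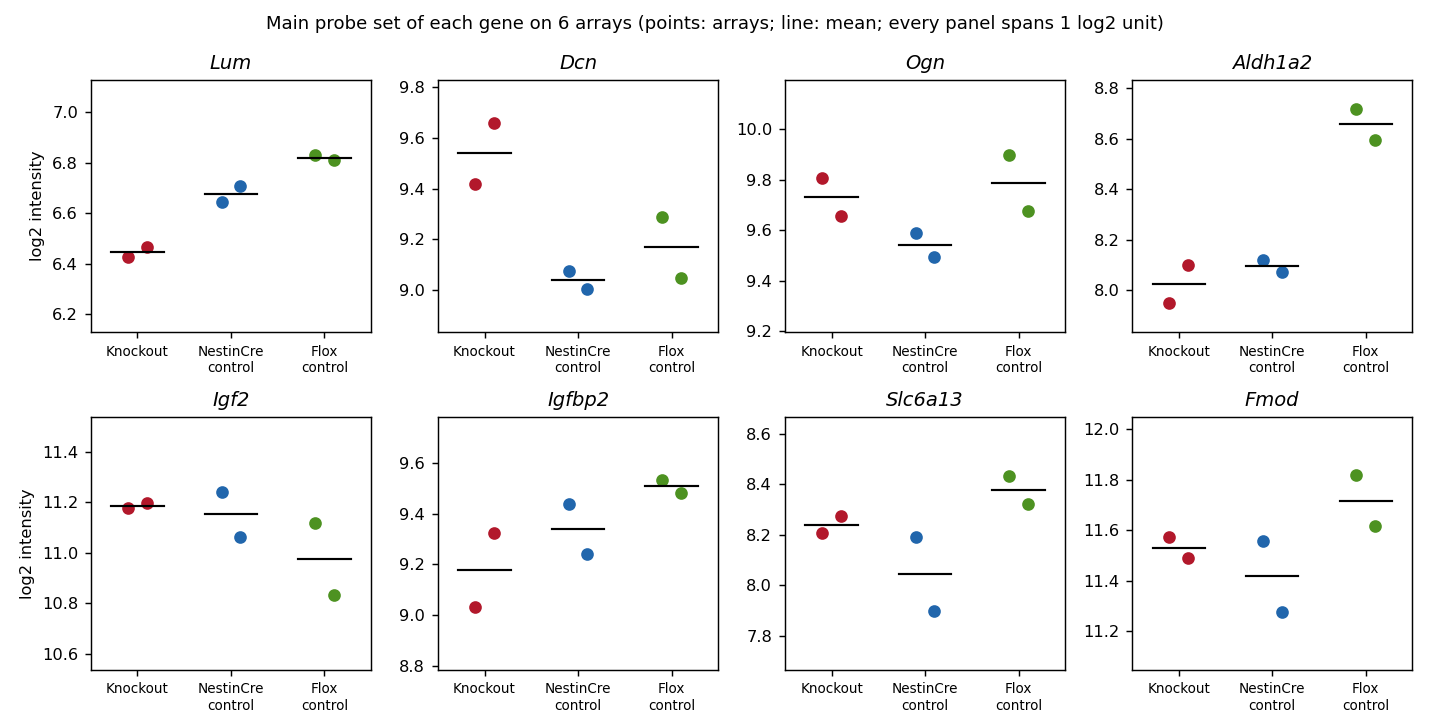
Log2 intensity of the main probe set of each of the 8 genes (vertical axes, each spanning 1 log2 unit) in knockout, NestinCre control and Flox control brain. Points are arrays and lines are group means (n = 2). Both Dcn knockout points lie above all control points, both Lum knockout points lie below them, and Aldh1a2 separates Flox control from the other groups.

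Lumican, a keratan sulphate proteoglycan that limits the thickness of collagen fibrils, is represented by 1 probe set, which is dim and lies at the 38.5th percentile of brightness. It read 6.43 and 6.47 in knockout, 6.64 and 6.71 in NestinCre control and 6.83 and 6.81 in Flox control. The groups did not overlap, and they were ordered knockout, NestinCre control, Flox control from low to high. The log2 difference of knockout from both controls was -0.30 (SE 0.05), with a limma adjusted p of 0.208. Against NestinCre control it was -0.23 (SE 0.06, limma adjusted p = 0.640) and against Flox control -0.37 (SE 0.06, limma adjusted p = 0.128). The controls themselves differed by -0.14 (SE 0.06) for NestinCre against Flox control, with a 95% interval of -0.29 to -0.0012. With sex added as a covariate the difference from both controls was -0.31, and on the female arrays alone it was -0.27. Leaving out each array in turn gave -0.32 to -0.28. With a variance trend on intensity the difference was the same, and its SE rose to 0.09 (limma adjusted p = 0.295). RMA compresses differences of dim probe sets, so the size of this one is a size on this scale only.

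Decorin, a proteoglycan that binds collagen and transforming growth factor beta, went the other way. Its main probe set read 9.42 and 9.66 in knockout, 9.07 and 9.0 in NestinCre control and 9.29 and 9.05 in Flox control. Both knockout arrays lay above all 4 controls, although knockout replicate 1 exceeded Flox control replicate 1 by little. Mean intensity was 746 ± 88.8 (SD, n = 2) in knockout, 526 ± 19.03 (SD, n = 2) in NestinCre control and 577 ± 68.5 (SD, n = 2) in Flox control. The log2 difference was 0.44 (SE 0.11) against both controls, or 1.35-fold, with a limma adjusted p of 0.295. It was 0.50 (SE 0.12) against NestinCre control and 0.37 (SE 0.12) against Flox control. A second, dim Dcn probe set read 6.60 and 6.47 in knockout, 6.19 and 6.40 in NestinCre control and 6.18 and 6.16 in Flox control. It too was highest on the knockout arrays, by 0.30 (SE 0.08). Leaving out arrays gave 0.31 to 0.56 for the main probe set, and without knockout replicate 2 the unadjusted limma p was 0.0553. With the sex covariate it was 0.48, and on the female arrays alone 0.54.

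Dcn and Lum are next to each other on chromosome 10 in the RefSeq gene order of assembly GRCm38.p6, followed by Kera and Epyc, which encode the related proteins keratocan and epiphycan. The pair with opposite differences thus sits in 1 proteoglycan cluster. Kera lay near the floor of the arrays at the 3.18th percentile, with a log2 difference of 0.02 (SE 0.04) in knockout against both controls. Epyc differed by 0.21 (SE 0.20).

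Fibromodulin, which guides collagen cross-linking, and osteoglycin, also called mimecan, showed a pattern of a different shape. On their main probe sets both were lowest in NestinCre control and highest in Flox control, as was Slc6a13. The main Fmod probe set read 11.57 and 11.49 in knockout, 11.56 and 11.28 in NestinCre control and 11.82 and 11.62 in Flox control. Knockout overlapped NestinCre control and lay below Flox control. The log2 difference of knockout was 0.11 (SE 0.12, 95% interval -0.21 to 0.43) from NestinCre control and -0.18 (SE 0.12, 95% interval -0.50 to 0.13) from Flox control. All 6 Fmod probe sets had this order, with NestinCre control below Flox control by 0.29 to 0.42. They share a transcript and are not independent, and 5 of them are of the x type, some of whose probes can match other sequences. The remaining one read 8.35 and 8.39 in knockout, 8.20 and 8.0 in NestinCre control and 8.59 and 8.44 in Flox control. There all 3 groups were apart, at 0.27 (SE 0.10) for knockout against NestinCre control and -0.42 (SE 0.10) for NestinCre against Flox control, and neither passed after adjustment.

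The main Ogn probe set read 9.81 and 9.66 in knockout, 9.59 and 9.49 in NestinCre control and 9.90 and 9.68 in Flox control. Knockout lay above NestinCre control by 0.19 (SE 0.10) and overlapped Flox control, from which it differed by -0.05 (SE 0.10). The second Ogn probe set read 7.36 and 7.31 in knockout, 7.13 and 7.12 in NestinCre control and 7.23 and 7.21 in Flox control. On it knockout was highest, by 0.16 (SE 0.05) against both controls, so the 2 probe sets place Flox control differently relative to knockout.

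**Figure D2:**
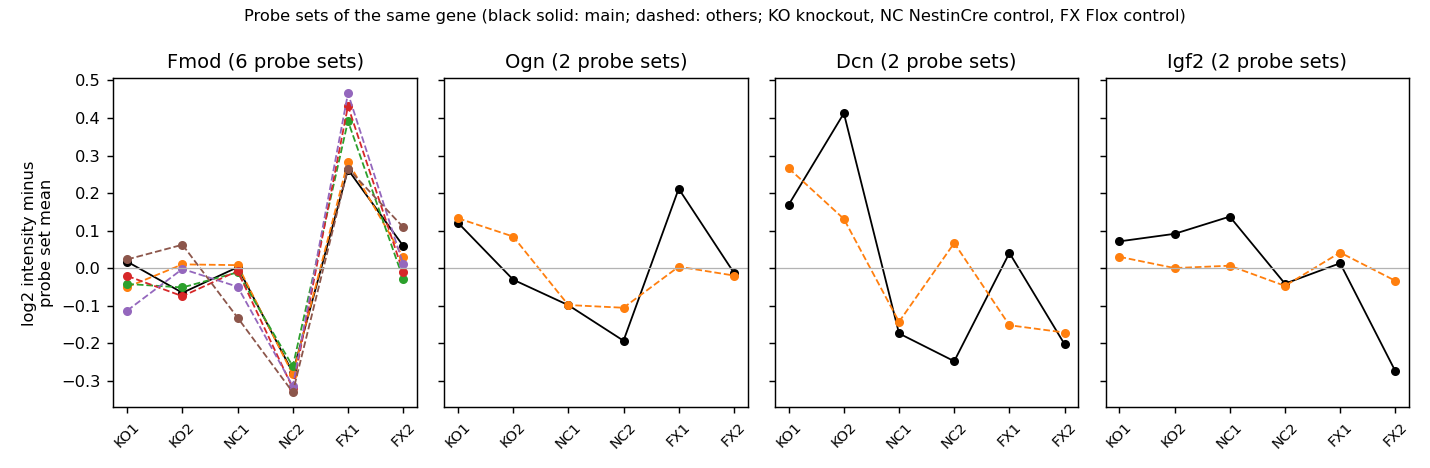
Log2 intensity of each probe set minus its own mean over the 6 arrays (vertical axis) on each array (horizontal axis) for the 4 genes with several probe sets. The 6 Fmod probe sets share a low NestinCre control replicate 2 and a high Flox control replicate 1, both Dcn probe sets are highest on knockout arrays, and the second Igf2 probe set is flat.

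The promoter windows of Fmod and Ogn are shown because they are a pair of proteoglycan genes with the same group order on their main probe sets. Slc6a13 had that order too, and the second Ogn probe set did not. RefSeq windows of GRCm38.p6, from 250 bases before to 50 after a transcript start, were found for 6 of the 8 genes, 12 windows in all. Every pair of windows of different genes was compared for its longest shared run on the transcribed strand. The Fmod and Ogn windows share an 11-base run, TTATTCAGCAG, in capitals in both sequences, which begins at position 7 in Fmod and position -6 in Ogn. Of 32851 such windows of all genes, 10 hold it on either strand, or 0.0304%. The only longer run among these 12 windows was a purine-rich one of 15 bases between Igfbp2 and Slc6a13. The run was found by searching these windows, and a match is a description, not a binding site. The Fmod window is chr1:134037004-134037303 on the plus strand and the Ogn window chr13:49607765-49608064 on the plus strand.
Fmod: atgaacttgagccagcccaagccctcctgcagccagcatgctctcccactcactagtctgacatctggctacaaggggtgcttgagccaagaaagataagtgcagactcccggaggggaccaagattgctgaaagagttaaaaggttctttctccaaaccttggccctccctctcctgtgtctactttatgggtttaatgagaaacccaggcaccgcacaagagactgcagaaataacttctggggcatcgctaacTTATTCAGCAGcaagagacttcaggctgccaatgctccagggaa
Ogn: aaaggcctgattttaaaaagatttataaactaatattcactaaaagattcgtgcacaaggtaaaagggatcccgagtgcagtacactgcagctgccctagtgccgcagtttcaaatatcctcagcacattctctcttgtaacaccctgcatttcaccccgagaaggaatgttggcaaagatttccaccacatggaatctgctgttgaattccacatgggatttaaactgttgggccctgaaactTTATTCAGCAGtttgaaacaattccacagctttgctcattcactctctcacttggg

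Aldh1a2, which encodes the retinaldehyde dehydrogenase that makes retinoic acid and is a classic product of the meninges, had the widest range of the 8 main probe sets. It read 7.95 and 8.10 in knockout, 8.12 and 8.07 in NestinCre control and 8.72 and 8.60 in Flox control. Knockout and NestinCre control overlapped, and both lay below Flox control. Mean intensity was 260 ± 19.2 (SD, n = 2) in knockout, 274 ± 6.27 (SD, n = 2) in NestinCre control and 404 ± 24.2 (SD, n = 2) in Flox control. The log2 difference of knockout was -0.07 (SE 0.08, 95% interval -0.28 to 0.14) from NestinCre control and -0.63 (SE 0.08) from Flox control, with limma adjusted p of 1 and 0.125. NestinCre control was below Flox control by a similar amount, -0.56 (SE 0.08, limma adjusted p = 0.376). The difference of -0.35 (SE 0.07) against both controls therefore averages 2 unlike values. On the female arrays alone the values against NestinCre and Flox control were -0.02 and -0.56. Aqp9, next to Aldh1a2 on chromosome 9 and dimmer (mean 6.77), was also lower in knockout, by -0.25 against NestinCre control and -0.62 against Flox control. Polr2m, the neighbour on the other side, differed by 0.09 and -0.06. Both groups that carry Nestin cre were low, and the pituitary transcripts named above were high on the same 2 Flox control arrays. Their part in the result was not tested.

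The Aldh1a2 window, chr9:71215539-71215838 on the plus strand, is given because this gene had the greatest difference between groups, and it contrasts with the windows above. It is 78.0% G and C with 50 CG pairs, beside 42.3% and 4 in Ogn, 51.0% and 3 in Fmod, and medians of 52.7% and 7 over all windows. The motif CCAAT, or its reverse complement ATTGG, in capitals below, begins at position -36. It occurs in 37.4% of all windows, and in windows of 4 of the 6 genes here.
Aldh1a2: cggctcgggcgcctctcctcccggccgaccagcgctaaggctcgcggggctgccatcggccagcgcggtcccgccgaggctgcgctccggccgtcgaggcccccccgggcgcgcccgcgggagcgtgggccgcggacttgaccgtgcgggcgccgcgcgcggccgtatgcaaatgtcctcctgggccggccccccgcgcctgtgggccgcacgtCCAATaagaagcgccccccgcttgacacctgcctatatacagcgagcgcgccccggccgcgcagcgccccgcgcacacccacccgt

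**Figure D3:**
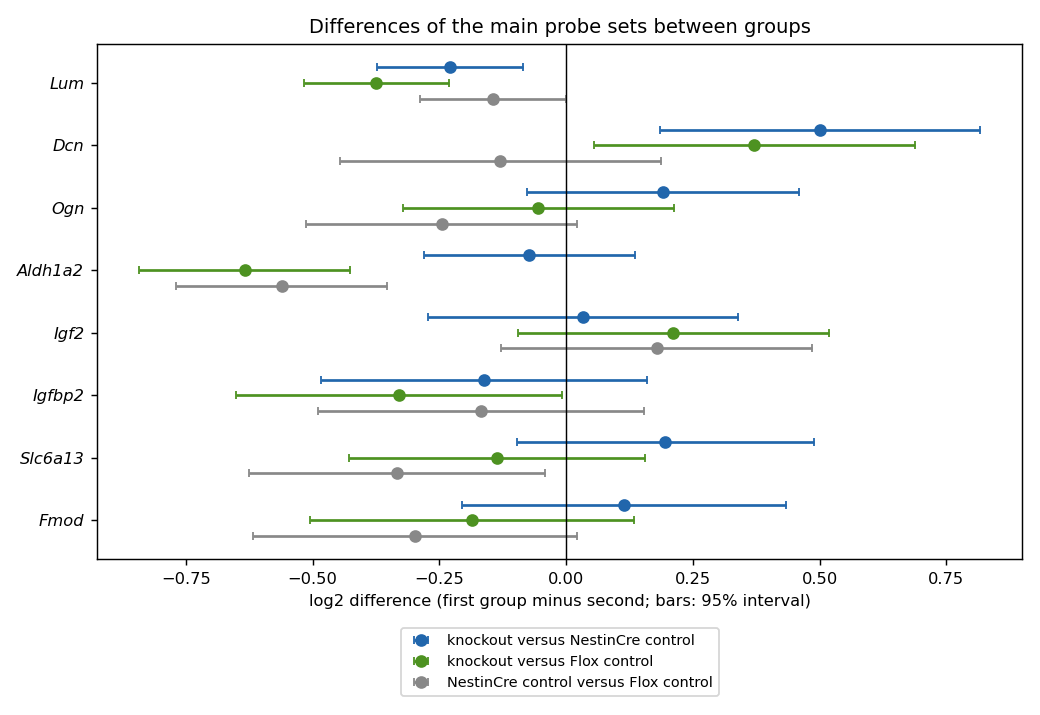
Log2 difference (horizontal axis, first group minus second) of the main probe set of each gene in 3 comparisons, with 95% intervals from the limma fit over 6 arrays. Intervals for Lum and Dcn lie on 1 side of 0 against each control, and Aldh1a2 lies near 0 against NestinCre control but at -0.63 against Flox control. The comparisons share arrays.

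Igf2, the insulin-like growth factor expressed from the paternal allele in most tissues and from both alleles in meninges and choroid plexus, read 11.18 and 11.20 in knockout, 11.24 and 11.06 in NestinCre control and 11.12 and 10.83 in Flox control. The knockout arrays fell inside the NestinCre control range and above Flox control. The log2 difference was 0.03 (SE 0.12, 95% interval -0.27 to 0.34) from NestinCre control and 0.21 (SE 0.12, 95% interval -0.09 to 0.52) from Flox control. A second Igf2 probe set lay at 5.67 to 5.75 on every array, near the floor of the arrays, where a difference could not be resolved.

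Igfbp2 encodes a secreted protein that binds insulin-like growth factors, and is made in meninges and choroid plexus. It read 9.03 and 9.33 in knockout, 9.44 and 9.24 in NestinCre control and 9.53 and 9.48 in Flox control. Knockout replicate 1 was lowest of all, while knockout replicate 2 lay within the NestinCre control range. The log2 difference from both controls was -0.25 (SE 0.11), and without knockout replicate 1 it was -0.10. It was -0.16 (SE 0.12) against NestinCre control and -0.33 (SE 0.12) against Flox control. Igfbp2 followed the order of Aldh1a2 exactly: sorted by intensity, the 6 arrays came in the same sequence for both genes. The 2 lowest arrays in it, knockout replicate 1 and NestinCre control replicate 2, are the male ones. With sex as a covariate Igfbp2 in knockout differed from both controls by -0.18 (SE 0.06, limma adjusted p = 0.432). The difference was -0.16 from NestinCre control and -0.21 from Flox control. NestinCre control then differed from Flox control by -0.045, beside -0.17 without the covariate.

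Slc6a13 encodes a transporter of GABA and taurine, known as GAT2, in leptomeningeal cells. It read 8.21 and 8.27 in knockout, 8.19 and 7.90 in NestinCre control and 8.43 and 8.32 in Flox control. The groups did not overlap, with knockout between the controls. It was higher than NestinCre control by 0.20 (SE 0.11) and differed by -0.14 (SE 0.11) from Flox control, and the 95% intervals of both include 0. The control difference was -0.33 (SE 0.11) for NestinCre against Flox control.

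Counted by comparison, the shares of members and of all probe sets without overlap were both larger where Flox control was involved. Against NestinCre control, 7 of 16 probe sets of knockout did not overlap, 6 higher and 1 lower, beside 31.9% of all probe sets, 16.4% higher and 15.4% lower. In this comparison 4 of 16, 3 higher and 1 lower, had an unadjusted limma p under 0.05, beside 5.81%, 3.20% higher and 2.61% lower. Against Flox control, 14 of 16 knockout probe sets did not overlap, 4 higher and 10 lower, beside 46.9%, 22.0% higher and 24.8% lower. Here 5 of 16, 2 higher and 3 lower, had an unadjusted limma p under 0.05, beside 15.9%, 8.29% higher and 7.65% lower. For NestinCre against Flox control 11 of 16 did not overlap, 1 higher and 10 lower, beside 42.3%, 18.8% higher and 23.6% lower. Of these probe sets 4, all lower, had an unadjusted limma p under 0.05, beside 10.4%, 5.20% higher and 5.22% lower. Fmod supplies 6 of the 10 lower probe sets against Flox control and 4 of the 10 between the controls. Adjusted over all probe sets, 0 members passed in each of these comparisons (limma), beside 0%, 0.00444% and 0% of all. Counted by main probe set, NestinCre control lay below Flox control without overlap for 6 of 8 genes, beside 30.4% of 18193 genes. Flox control replicate 1 was the highest array for 6 of the 8 genes and NestinCre control replicate 2 the lowest for 4. Such extremes were not counted over all genes, so this is not shown to be particular to these 8. By group mean, NestinCre control was below Flox control for 7 of the 8, beside 11683 of 18193 genes.

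Across the 6 arrays the main probe sets fell into sets of like order, given here as a description over arrays that share groups. Fmod and Slc6a13 were the most alike pair, with Ogn close to both, and Lum, Aldh1a2 and Igfbp2 formed another such set. Dcn and Igf2 each ran against Lum. By the rule for most similar genes outside the 8, the first was Kctd5 for Lum, Lcat for Dcn, H2-Aa for Ogn, Gm715 for Aldh1a2, Ankrd24 for Igf2, Zfp3 for Igfbp2, Cradd for Slc6a13 and Svbp for Fmod. With 2301 candidates and 6 arrays, many genes match a profile closely: 139 of them correlated above 0.9 with Aldh1a2 and 4 did with Ogn.

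Further fibroblast genes, 59 measured of 62 listed, differed in both directions. The list shares Cldn11, at the 94.4th percentile of brightness, with the oligodendrocyte markers, so its genes do not read fibroblasts alone. In knockout against both controls 22 were above 0 and 37 below, with a median log2 difference of -0.06, beside 7396 above and 10797 below over all 18193 genes. At an unadjusted limma p under 0.05, 4 were higher and 9 lower, beside 4.16% and 6.45% of all genes, and 0 passed after adjustment, beside 0.0275%. Efemp1, a fibulin of the extracellular matrix, read 9.21 and 9.14 in knockout, 9.60 and 9.46 in NestinCre control and 9.53 and 9.56 in Flox control. The log2 difference was -0.36 (SE 0.07) from NestinCre control and -0.37 (SE 0.07) from Flox control, and the controls overlapped. Bmp7, a bone morphogenetic protein, differed by -0.36 (SE 0.09) from both controls, with knockout arrays at 7.86 and 7.90 against 8.08 to 8.37 in the controls. The calcium-binding protein gene S100a6 (-0.25, SE 0.05) and the phosphatase gene Alpl (-0.23, SE 0.06) had group means in the order of those of Lum, with Flox control highest. Unlike in Lum, the larger step lay between the controls, at -0.27 (SE 0.06) and -0.28 (SE 0.07) for NestinCre against Flox control. Knockout differed from NestinCre control by -0.11 (SE 0.06) and -0.09 (SE 0.07). The 4 higher genes, Bmp4, Postn, Cped1 and Pi16, lie below the median brightness and were picked for naming after their values were seen. Bmp4, another bone morphogenetic protein, read 7.64 and 7.74 in knockout, 6.93 and 7.02 in NestinCre control and 7.29 and 6.73 in Flox control. Its difference of 0.70 (SE 0.17, limma adjusted p = 0.284) was larger than those of the 4 lower genes named above. Postn, which encodes the matrix protein periostin, differed by 0.44 (SE 0.13), with knockout at 7.21 and 7.47 against 6.58 to 7.11 in the controls. Cped1 differed by 0.37 (SE 0.07) and Pi16 by 0.33 (SE 0.11). Pdgfra, the receptor used to mark fibroblasts and also oligodendrocyte precursors, read 10.57 and 10.66 in knockout, 10.30 and 10.39 in NestinCre control and 10.59 and 10.68 in Flox control. Its lowest group was NestinCre control, as for Fmod and Ogn.

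Other small leucine-rich proteoglycans, 11 besides the members, included 2 with an unadjusted limma p under 0.05 in knockout against both controls, both lower, and 0 that passed after adjustment, beside 6.45% of all genes lower and 4.16% higher. Prelp, next to Fmod on chromosome 1, read 8.01 and 8.33 in knockout, 8.47 and 8.36 in NestinCre control and 8.65 and 8.45 in Flox control, a difference of -0.31 (SE 0.12). The other was the dim Ecm2 (-0.12, SE 0.05). Biglycan (Bgn), the closest relative of decorin, read 9.46 and 9.59 in knockout, 9.23 and 9.12 in NestinCre control and 9.57 and 9.30 in Flox control. It was higher than NestinCre control by 0.35 (SE 0.11) and overlapped Flox control, from which it differed by 0.09 (SE 0.11). Omd, next to Ogn on chromosome 13, differed by 0.07 (SE 0.12).

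In the retinoic acid pathway, 19 genes besides Aldh1a2 were measured, 15 of them below 0 in knockout against both controls, with a median of -0.09, beside 10797 of 18193 genes and a median of -0.02 over all. At an unadjusted limma p under 0.05, 2 were lower and 0 higher, near the 6.45% and 4.16% of all genes. Dhrs3, a retinaldehyde reductase that retinoic acid induces, read 8.64 and 8.60 in knockout, 9.24 and 9.04 in NestinCre control and 9.22 and 9.35 in Flox control. Both knockout arrays lay below all controls, at -0.59 (SE 0.08, limma adjusted p = 0.172), and the controls differed by only -0.14 (SE 0.09). Cyp26b1, the enzyme that degrades retinoic acid, read 7.62 and 7.58 in knockout, 7.87 and 7.94 in NestinCre control and 7.90 and 8.25 in Flox control, a difference of -0.39 (SE 0.11, limma adjusted p = 0.330). Dhrs3 and Cyp26b1 were low in knockout, whereas Aldh1a2 was high in Flox control. The retinoic acid receptor gene Rarb had NestinCre control lower than Flox control (-0.41, SE 0.14) and knockout at 0.06 (SE 0.14) from NestinCre control.

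Of 20 further genes of the insulin-like growth factor system, 1 was higher and 2 were lower at an unadjusted limma p under 0.05, with a median of -0.0096 against both controls. Those counts are near the 4.16% of all genes that were higher and the 6.45% that were lower. Igfbp4, another binding protein, read 9.59 and 9.65 in knockout, 10.14 and 9.87 in NestinCre control and 10.05 and 10.01 in Flox control, a difference of -0.40 (SE 0.09). Igfbp5, next to Igfbp2 on chromosome 1, differed by 0.07 (SE 0.07). Among 5 other GABA, taurine, betaine and creatine transporters listed with Slc6a13, the astrocytic GABA transporter gene Slc6a11 had a difference of -0.27 (SE 0.06) without passing after adjustment. Slc6a12, next to Slc6a13 on chromosome 6, differed by -0.13 (SE 0.07). Usp18, the neighbour of Slc6a13 on the other side, was higher in knockout by 1.05 against both controls. The listed collagens were split, with 11 of 19 above 0 and a median of 0.0027. At an unadjusted limma p under 0.05, 2 were higher and 1 lower, beside 4.16% and 6.45% of all genes. The brightest of the 19 was Col25a1, at the 94.5th percentile (0.09, SE 0.06), and its cells of origin are not shown by these data. Its mean intensity in knockout was 2904, beside sums of 9398 and 9620 for the 19 on the knockout arrays. That sum is therefore not a reading of fibroblast collagens alone. Col6a1 was higher (0.41, SE 0.10) and Col8a2 lower (-0.49, SE 0.15), both without passing after adjustment.

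Markers of other cells that express some of these genes were set beside them. Choroid plexus, which also expresses Igf2 and Igfbp2, had 19 of 20 markers below 0 in knockout against both controls, with a median of -0.28, beside 10797 of 18193 genes below 0. Its summed intensity was 15866 and 16354 in knockout, 18427 and 16813 in NestinCre control and 17627 and 17546 in Flox control, and 7 markers, all lower, had an unadjusted limma p under 0.05, beside 6.45% of all genes. Kcne2, a potassium channel subunit, differed by -0.47 (SE 0.11) and Kl, which encodes klotho, by -0.40 (SE 0.09). Pericyte and smooth muscle markers, which lie on the vessels that perivascular fibroblasts accompany, summed to 5510 and 5212 in knockout, 8527 and 8380 in NestinCre control and 9452 and 8871 in Flox control. Of these 16, 10 were lower at an unadjusted limma p under 0.05, beside the same 6.45%, and Rgs5 fell (-2.16, SE 0.08) past the adjusted threshold. Pituitary markers summed to 4095 and 4441 in knockout, 4297 and 4327 in NestinCre control and 5168 and 6293 in Flox control. Border macrophage markers summed to 1674 and 1760 in knockout, 1548 and 1707 in NestinCre control and 1461 and 1780 in Flox control, and these sums overlapped. Of these 10 markers, 4 were higher and 0 lower at an unadjusted limma p under 0.05, beside 4.16% and 6.45% of all genes, and 0 passed after adjustment. Mrc1, the mannose receptor gene, differed by 0.41 (SE 0.08), F13a1 by 0.44 (SE 0.14) and Cd163 by 0.55 (SE 0.21). Each of these had both knockout arrays above all controls. Stab1 went the other way (-0.19, SE 0.08), with both knockout arrays below all controls. Of the 10 markers 5 were above 0 and 5 below, with a median log2 difference of 0.0055. The 8 genes summed to 8093 and 8154 in knockout, 8112 and 7075 in NestinCre control and 9036 and 7840 in Flox control, with all groups overlapping. Fmod and Igf2 weigh most in this sum, with mean knockout intensities of 2963 and 2330, beside 87.2 for Lum. The sum therefore cannot show the differences of dimmer members. Its Fmod value is from a probe set of the x type, and the only Fmod probe set of another type averaged 331 in knockout. The part of these other cells in the members' values was not tested.

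**Figure D4:**
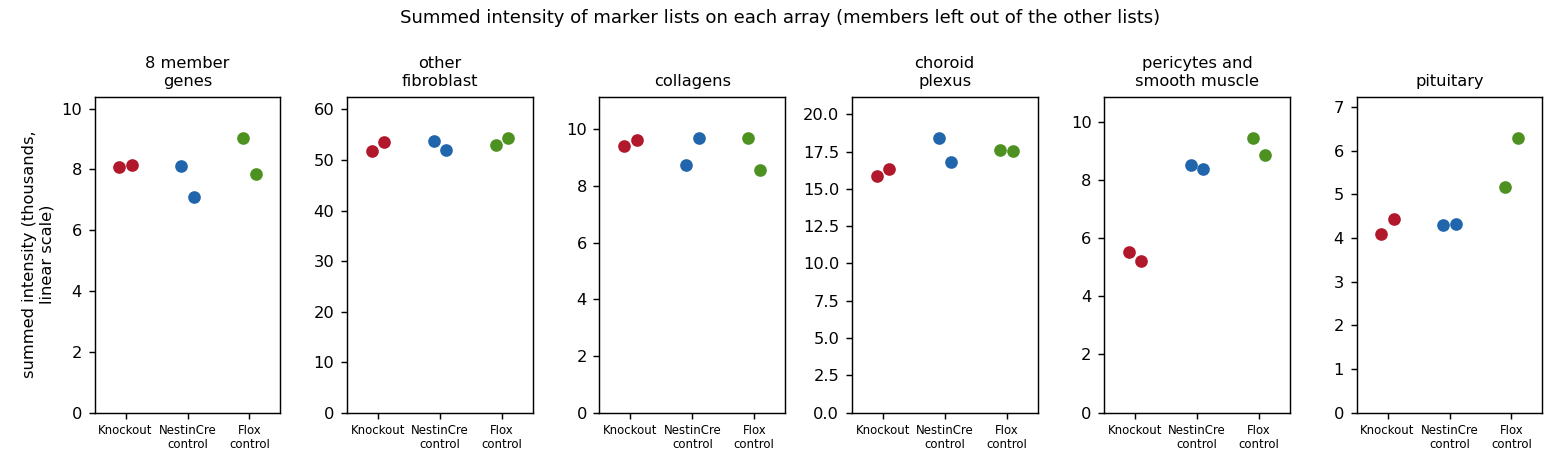
Summed linear intensity (vertical axes) of the main probe sets of 6 gene lists on each array, by group, with points for arrays. Sums of pericyte and smooth muscle markers and of choroid plexus markers are lowest on the knockout arrays. Those of pituitary markers are highest on the Flox control arrays. Those of the 8 genes, the other fibroblast genes and the collagens overlap between groups, and bright genes weigh most in a sum. Col25a1 is the brightest of the collagens, and the other fibroblast genes include Cldn11, also listed as an oligodendrocyte marker.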

How the data were processed

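Whole-brain RNA of 6 samples in 3 groups was measured on 1 array each. The deposited values are probe set intensities on a linear scale. Per the submitters' processing notes, GCOS and RMA were used by the authors, with no version, role or order given. RMA gives arrays a common distribution and compresses differences of dim probe sets. Log2 of each deposited intensity was taken, 64 control probe sets of 45101 were left out, and limma 3.58.1 in R 4.3.3 (lmFit, eBayes without trend) fitted a mean per group over all 6 arrays, with 3 residual degrees of freedom, or 4.94 with the prior. Unless said otherwise, a p is from this fit, SE is that of the log2 difference, and Benjamini-Hochberg adjustment covered 45037 probe sets. The step was tested on simulated data.

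A single symbol was given to probe sets of 18193 genes, and the brightest probe set over all arrays stands for a gene. All 8 members and every one of their probe sets are described. From each other list, up to 4 genes above median brightness with the smallest p against both controls could be named, and genes named outside this (neighbours, Gh, Ecm2, Pdgfra, Rarb, Bmp4, Postn, Cped1 and Pi16) were chosen after their values were seen. Similar genes were those of highest correlation over 6 arrays among main probe sets above the median with a range of at least 0.5. The members and lists were chosen with earlier results of these data known. Whether each array is a separate animal is not stated, and a p therefore reflects only how these samples vary, some of which may be technical. Precision is limited by having 2 arrays a group.

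Alternatives were a repeated quantile normalization, median centring, filters that drop dim probe sets, a variance trend on intensity with and without robust fitting, log2 of the value plus 16, fits of only the compared groups, a replicate block and each array left out. After seeing the data, a sex covariate and a fit of only the female arrays were added.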

Additional observations from a re-analysis of the deposited data

How the results depend on the processing

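No member passed the adjusted limma threshold under any setting run. Of 127 log2 differences of the 8 main probe sets against both controls under other settings, 119 kept their sign, and those that did not belonged to Ogn, Slc6a13 and Fmod, whose differences are near 0. On the female arrays alone Ogn was at -0.031 and Slc6a13 at -0.011. Leaving out arrays gave -0.0075 to 0.14 for Ogn, -0.043 to 0.10 for Slc6a13 and -0.11 to 0.034 for Fmod. The counts of member probe sets at an unadjusted limma p under 0.05 moved more. Counts are not given for fits that leave 1 array in a group. For knockout against both controls the count was 5, beside 5010 of all 45037 probe sets. It was 2 with only probe sets above the median brightness, which removes 4 of the 16, beside 2302 of all 22518. With the sex covariate it was 6, beside 4622 of 45037. For knockout against NestinCre control the count was 4, beside 2617 of 45037, and 2 above the median brightness, beside 1102 of 22518. It was 1 with an intensity trend and 1 with a trend and robust fitting, beside 2597 and 2588 of 45037. With median centring and with the sex covariate it was 5, beside 2509 and 2891 of 45037. For knockout against Flox control the count was 5, beside 7179 of 45037. It was 3 above the median brightness, beside 3582 of 22518, and 3 with only the compared groups, beside 6324 of 45037. For NestinCre against Flox control (4), it was 2 with only the compared groups, 2 with the sex covariate, 1 on the female arrays alone, and 2 to 7 with an array left out: 2 without either knockout array or NestinCre control replicate 2, and 7 without Flox control replicate 2. With the replicate number as a block the counts in this order were 5, 5, 3 and 6, beside 4423, 2404, 6334 and 4137 of 45037. Nothing says that equal numbers pair samples: replicate differences correlated over probe sets at -0.31 between knockout and NestinCre control, -0.24 between knockout and Flox control and 0.19 between the controls. The cause of these shifts was not tested. Lum and the second probe sets of Dcn and Ogn are dim, and signal over background limits what they can show.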
